A study of Homo sapiens with 7 samples.

Results

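Mitochondrial ribosomal proteins are the protein parts of the mitoribosome, and this account covers every gene of the deposited table whose symbol is MRPL or MRPS, a number and at most 1 further letter. The table has 14647 rows, and 72 of them met this rule, 45 with a large subunit symbol (MRPL) and 27 with a small subunit symbol (MRPS). The members were taken by symbol alone, and this choice was made with earlier results of these data known. Their levels were measured in A549, a human lung adenocarcinoma epithelial line, in 4 libraries of stretched cells (libraries 4 to 7) and 3 libraries of doxorubicin-treated cells (libraries 1 to 3). Cells were elongated by 15% in 15 cycles per min over 24 h. Doxorubicin, which poisons topoisomerase II and damages DNA, was given at 100 nM for 24 h. In both groups β-galactosidase, a stain used as a sign of senescence, was read 6 days later and the positive cells were sorted for RNA. Both groups are therefore sorted senescence-stained cells of 1 tumour line, and untreated cells were not analysed here. The labels do not name separate cultures, so p-values cover only variation among libraries, and that variation may be technical.

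The mitoribosome translates the few proteins encoded by mitochondrial DNA, all of them subunits of the respiratory chain and the ATP synthase. Its ribosomal RNAs come from mitochondrial DNA, but its proteins are encoded in the nucleus, made in the cytosol and imported. Many have a bacterial homologue, while others occur only in mitochondria. The small subunit reads the messenger RNA and the large subunit joins amino acids, holds the exit tunnel and lies at the inner membrane. Symbols and places do not always match. MRPS30 (now mL65) and MRPS18A (mL66) carry small subunit symbols but sit in the large subunit, and MRPS36 (now KGD4) belongs to the 2-oxoglutarate dehydrogenase complex.

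Total counts were 5636494 to 7419798 in stretch libraries and 2611766 to 4644650 in doxorubicin libraries. Of all rows, 4.17% to 4.88% had no count in stretch libraries, against 10.9%, 21.4% and 5.10% in doxorubicin libraries 1, 2 and 3. By rows without a count, doxorubicin libraries 1 and 2 stood apart from the other 5. Results are therefore given below with and without them. The gene EIF4A2 held 1.67% to 2.87% of counts under stretch, but 16.1% of library 1, 30.6% of library 2 and 10.8% of library 3. TMM factors were 1.25 to 1.33 under stretch, but 0.730, 0.443 and 1.14 for libraries 1, 2 and 3. By chi-square per degree of freedom, library 3 was nearer to library 1 (57.4) than to any stretch library (66.6 to 109). It was farther from library 2 (112) than from any stretch library. This measure rises with total counts, so pairs of unlike depth are not compared on equal terms. The correlation of library 3 on the log scale was higher with stretch libraries (0.915 to 0.941) than with library 1 (0.882) or library 2 (0.754). Of the epithelial genes, KRT8 stood at 339.9 to 635 CPM in stretch and 503 to 789 CPM in doxorubicin (CPM, counts scaled to a common library size after TMM adjustment). KRT18 stood at 401 to 514 CPM in stretch and 1018 to 2763 CPM in doxorubicin, without overlap, and CDH1 at 23.2 to 48.4 CPM in stretch and 29.7 to 48.4 CPM in doxorubicin. EPCAM was low, at 10.2 to 14.6 CPM in stretch and 0.865 to 4.54 CPM in doxorubicin. The globin gene HBB, a red cell marker, stood at 40.1 to 96.8 CPM in stretch and 116.7 to 472 CPM in doxorubicin, highest in library 3. The fibroblast genes COL1A1 and DCN stood at 4.54 to 7.32 and 0.215 to 0.668 CPM in stretch, and at 6.05 to 14.7 and 0.865 to 1.99 CPM in doxorubicin. PTPRC and PECAM1 were not analysed here. The part of these differences in the results below was not tested.

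Of the 72 members, 67 had enough counts to be tested. The threshold, an adjusted p of 0.05 by the quasi-likelihood test of edgeR with Benjamini-Hochberg adjustment over 11230 genes, was passed by a single member, MRPS30, which was higher in stretch. That is 1 of 67 members, against 0.356% of all tested genes called higher in stretch, and 0 members were called lower, against 1.97% of all tested genes. At an unadjusted p under 0.05, 19 members were higher in stretch and 2 lower, where all tested genes gave 8.66% and 14.5%. DESeq2 called 9 members higher and 0 lower, against 3.09% and 6.94% of its tested genes, and limma-voom called MRPS30 alone, against 0.303% called higher and 1.35% lower. With library totals in place of TMM factors 0 members were called, against 0.0178% of all genes called higher and 0.098% lower, and 29 members were higher and 0 lower at an unadjusted p under 0.05, where all genes gave 21.1% and 2.57%. Voom with library quality weights, an alternative added after seeing the data, called 30 members higher and 8 lower, against 23.2% and 23.8% of all genes.

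Most members lay on the stretch side without passing the test. The log2 fold change, stretch minus doxorubicin, was above 0 for 49 of 67 members and its median was 0.39, beside a median of 0.02 over all tested genes. All stretch libraries exceeded all doxorubicin libraries in 22 members, against 11.5% of all tested genes, and all stretch libraries were below in 2 members, against 9.88%. Fold changes ran from -1.12 for MRPS2 to 2.01 for MRPS30 on the log2 scale. In bulk RNA, fewer cells expressing a gene and less RNA per cell cannot be told apart.

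**Figure D1:**
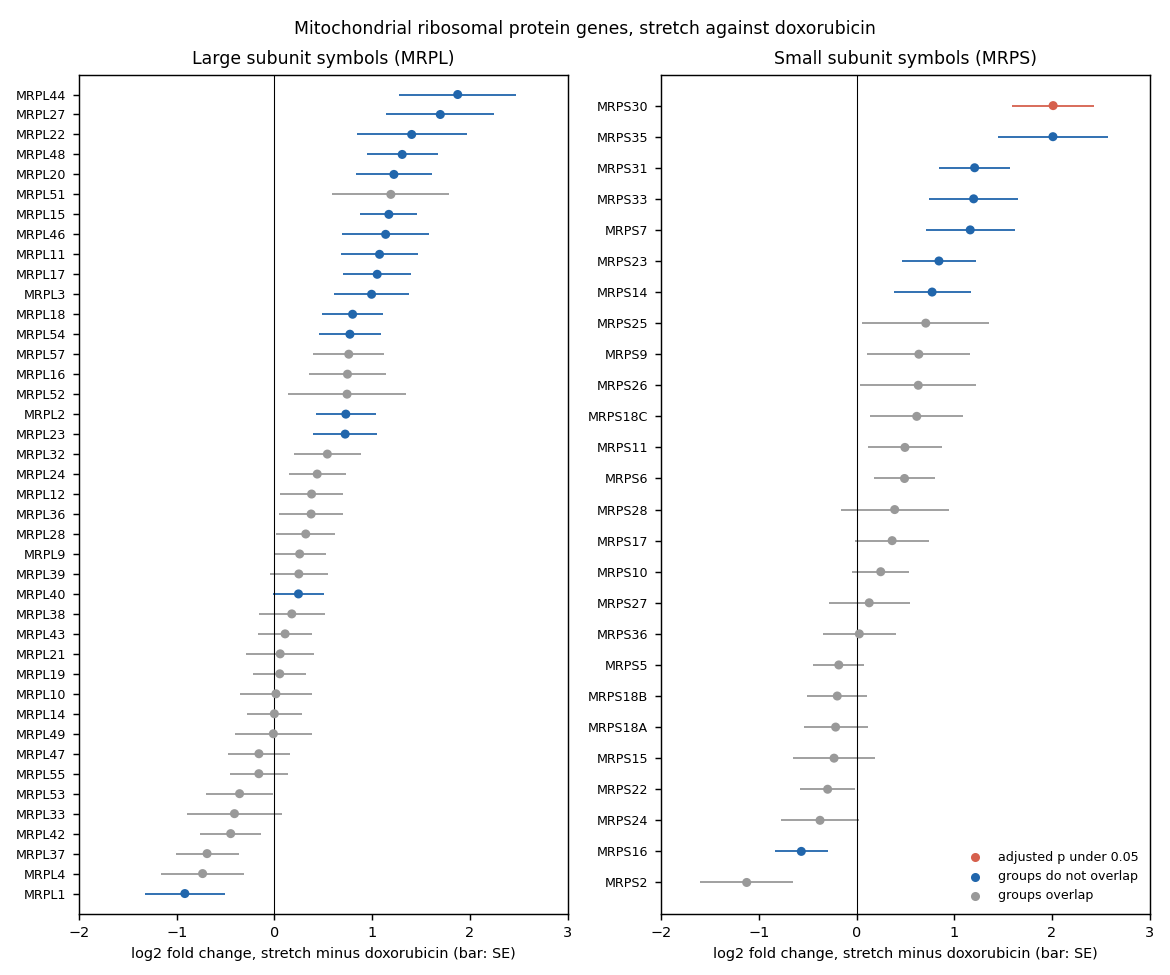
Log2 fold change (x axis, stretch minus doxorubicin) of the 67 tested members, in rows ordered by value, for MRPL symbols on the left and MRPS symbols on the right. Bars are standard errors, red marks an adjusted p under 0.05 and blue marks groups that do not overlap. MRPS30 at 2.01 is the only red point, and 49 of 67 points lie right of 0.

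MRPS30 is a protein with no bacterial homologue that lies in the large subunit beside MRPL37, to which it is related in sequence. It stood at 13.9, 14.1, 18.6 and 18.5 CPM in stretch libraries 4 to 7, against 6.35, 1.73 and 3.402 CPM in doxorubicin libraries 1 to 3. Every stretch library was above every doxorubicin library, and doxorubicin library 2 held the lowest value. Means were 16.3 ± 2.63 CPM in stretch (SD, n = 4) and 3.83 ± 2.34 CPM in doxorubicin (n = 3). The log2 fold change was 2.01 (SE 0.42, edgeR adjusted p = 0.0372), a 4.03-fold difference. In raw counts these were 104, 132, 172 and 172 in stretch and 16, 2 and 18 in doxorubicin. The direction held in all 17 alternatives and the call in 11, with adjusted p from 0.000220 to 0.161. The call was lost without doxorubicin library 1, without any 1 of the 4 stretch libraries, and with library totals in place of TMM factors. Few genes of any kind were called higher in these settings. The share of all genes was 0% without doxorubicin library 1 and 0.0178% with library totals. Without stretch libraries 4, 5, 6 and 7 in turn it was 0.0987%, 0.00911%, 0% and 0%, against 0.356% with all libraries. Against doxorubicin library 3 alone, a lone library assumed to vary like the stretch libraries, the log2 fold change was 2.27 (edgeR adjusted p = 0.0465). MRPS30 lies on chromosome 5 at 44808925 to 44820428 (GRCh38, GENCODE release 29).

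**Figure D2:**
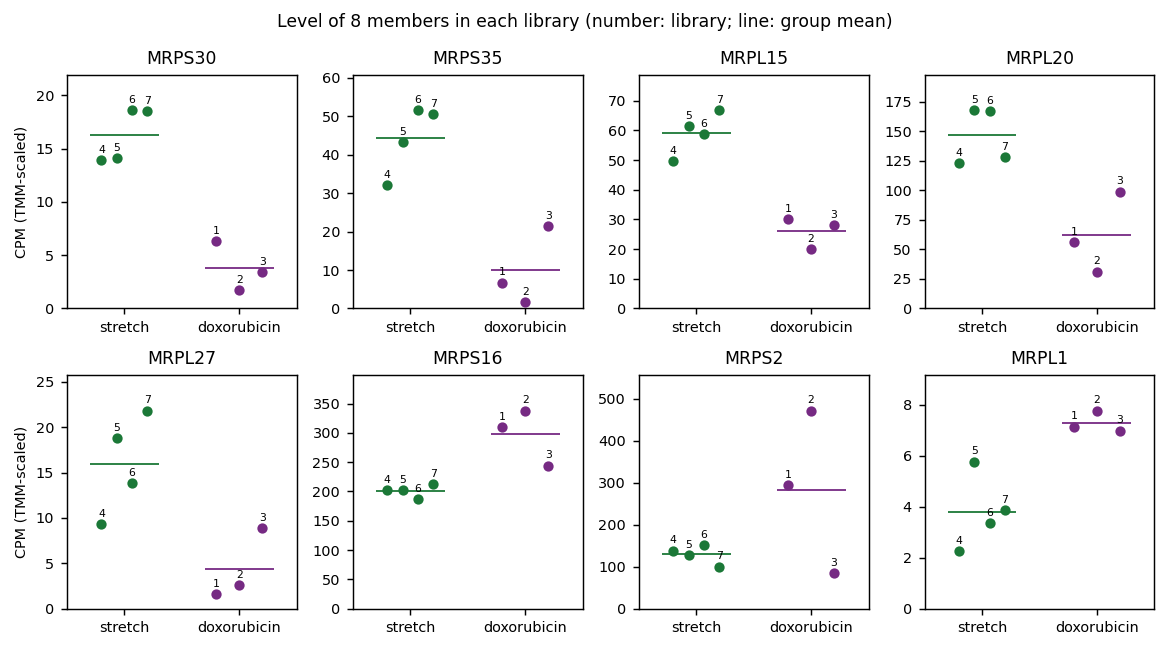
CPM (y axis, TMM-scaled, starting at 0) of 8 members in each library, stretch on the left and doxorubicin on the right, with library numbers beside the points and lines at group means. Groups do not overlap for MRPS30, MRPS35, MRPL15, MRPL20 and MRPL27 (higher in stretch) and MRPS16 and MRPL1 (lower in stretch), and overlap for MRPS2, where doxorubicin library 2 reached 472 CPM.

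Its partner MRPL37 did not pass the test. It stood at 48.996, 52.5, 51.1 and 39.3 CPM in stretch libraries 4 to 7, against 82.2, 104.6 and 47.1 CPM in doxorubicin libraries 1 to 3. The groups overlapped because doxorubicin library 3 lay within the stretch range. The log2 fold change was -0.69 (SE 0.32, edgeR adjusted p = 0.228), -0.92 without doxorubicin library 3 (edgeR adjusted p = 0.0221) and 0.04 against that library alone. The difference between MRPS30 and MRPL37 in their response was not tested.

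Members of the central protuberance and the stalks of the large subunit, where translation factors bind and tRNAs enter and leave, had log2 fold changes on both sides of 0, none past the threshold. MRPL11, at the base of the factor-binding stalk, stood at 71.0, 66.2, 56.9 and 65.9 CPM in stretch libraries, against 31.8, 12.1 and 46.1 CPM in doxorubicin libraries. These groups did not overlap, but the test was not passed (log2 fold change 1.08, SE 0.39, edgeR adjusted p = 0.141). MRPL10, the stalk protein that carries MRPL12, averaged 83.04 ± 16.5 CPM in stretch (SD, n = 4) and 82.8 ± 36.6 CPM in doxorubicin (n = 3). MRPL12, which recruits translation factors, averaged 219.6 ± 23.3 CPM in stretch and 168 ± 62.8 CPM in doxorubicin. MRPL18 and MRPL46 also had stretch libraries above all doxorubicin libraries, with log2 fold changes of 0.80 and 1.14 that did not pass. MRPL1, which forms the stalk where spent tRNA leaves, was the only large subunit symbol with all stretch libraries below, at 2.27, 5.78, 3.35 and 3.87 CPM, against 7.15, 7.78 and 6.99 CPM in doxorubicin. MRPL1 was chosen for description after its values were seen, and its log2 fold change of -0.92 did not pass (edgeR adjusted p = 0.210).

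Proteins of the large subunit core fold the ribosomal RNA around the peptidyl transferase centre, and none of those described here passed the test. Some were named by rule and others after their values were seen. MRPL15, named after its value was seen, came nearest to the threshold, at 49.5, 61.5, 58.8 and 66.8 CPM in stretch against 30.2, 19.9 and 28.0 CPM in doxorubicin (log2 fold change 1.17, SE 0.29, edgeR adjusted p = 0.0591). Its doxorubicin libraries lay close together, unlike those of most members. MRPL20, an early assembly protein in bacteria, stood at 123, 168, 167 and 128 CPM in stretch and 56.0, 31.1 and 98.9 CPM in doxorubicin (log2 fold change 1.22, edgeR adjusted p = 0.107). MRPL27, which in bacteria reaches the peptidyl transferase centre, stood at 9.35, 18.8, 13.8 and 21.8 CPM in stretch and 1.59, 2.59 and 8.88 CPM in doxorubicin. Its groups did not overlap, though stretch library 4 and doxorubicin library 3 nearly met. MRPL3 and MRPL2, which contact the same centre, had log2 fold changes of 0.99 and 0.73, and MRPL17 had 1.05, all without overlap. MRPL14 had the smallest difference, at 49.6 ± 8.95 CPM in stretch and 49.4 ± 7.08 CPM in doxorubicin. MRPL4 had a log2 fold change of -0.73 and MRPL33 of -0.41, both with overlapping groups.

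Around the exit tunnel, where the nascent chain leaves toward the inner membrane, MRPL22 and MRPL23 had stretch libraries above all doxorubicin libraries and MRPL24 and MRPL47 did not. MRPL22 stood at 6.41, 9.95, 8.86 and 11.9 CPM in stretch and 3.97, 0 and 4.91 CPM in doxorubicin. Its count of 0 in doxorubicin library 2 allows up to 2.59 CPM there, the level of 3 counts, for counting error only. MRPL23 averaged 131 ± 18.7 CPM in stretch (SD, n = 4) and 79.1 ± 28.5 CPM in doxorubicin (n = 3). MRPL24 averaged 258 ± 44.2 CPM in stretch and 191 ± 32.5 CPM in doxorubicin. The log2 fold changes of MRPL22, MRPL23, MRPL24 and MRPL47 were 1.40, 0.72, 0.44 and -0.16, none past the threshold.

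Among large subunit proteins that occur only in mitochondria, MRPL44 and MRPL48 were the farthest toward stretch after MRPS30. MRPL44, which has the fold of an RNase III enzyme and whose variants cause cardiomyopathy, stood at 9.08, 14.2, 19.5 and 19.5 CPM in stretch and 3.57, 0 and 6.99 CPM in doxorubicin (log2 fold change 1.87, SE 0.60, edgeR adjusted p = 0.106). MRPL48 stood at 13.8, 21.1, 18.3 and 24.0 CPM in stretch and 7.15, 5.19 and 10.02 CPM in doxorubicin (log2 fold change 1.31, SE 0.36, edgeR adjusted p = 0.0753). Neither pair of groups overlapped. MRPL51 had a log2 fold change of 1.19, but its doxorubicin libraries spread over 15.5, 4.32 and 55.4 CPM, the last of them within the stretch range of 43.6 to 68.5 CPM. MRPL53 averaged 269 ± 40.1 CPM in stretch and 345 ± 148 CPM in doxorubicin, with overlap, and MRPL42 had a log2 fold change of -0.45. MRPL49, at 14.4 ± 4.11 CPM in stretch and 13.9 ± 6.76 CPM in doxorubicin, had a log2 fold change of -0.01.

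In the small subunit, 18 of 26 tested MRPS symbols lay toward stretch and 8 toward doxorubicin, with 7 and 1 of them without overlap. All tested genes gave 11.5% and 9.88% without overlap. MRPS35, found only in mitochondria, was the farthest toward stretch among proteins placed in the small subunit. It stood at 32.0, 43.3, 51.6 and 50.5 CPM in stretch libraries, against 6.75, 1.73 and 21.4 CPM in doxorubicin libraries. The groups did not overlap, but the doxorubicin values differed by up to 12.4-fold among themselves, and the test was not passed (log2 fold change 2.01, SE 0.57, edgeR adjusted p = 0.0780). Without doxorubicin library 3 the log2 fold change of MRPS35 was 3.22, and against that library alone 1.07. MRPS31, MRPS33 and MRPS7 followed, with log2 fold changes of 1.21, 1.20 and 1.16 and no overlap. MRPS31 and MRPS33 have no bacterial homologue, while MRPS7 is the homologue of a bacterial head protein. MRPS31 has a pseudogene copy, MRPS31P5, among the rows of the table, so reads could be split between them. MRPS17 is the only other member with such a row, MRPS17P1.

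Among the small subunit symbols with the highest counts, several lay toward doxorubicin without passing the test. MRPS2, a homologue of the bacterial S2 protein, stood at 139, 128, 151 and 100.5 CPM in stretch, against 294, 472 and 84.3 CPM in doxorubicin. Doxorubicin libraries 1 and 2 lay above every stretch library and doxorubicin library 3 below every stretch library. The log2 fold change of MRPS2 was -1.12 (SE 0.48, edgeR adjusted p = 0.188), -1.53 without doxorubicin library 3 (edgeR adjusted p = 0.00294) and 0.64 against that library alone. MRPS24, the homologue of the S3 protein at the messenger RNA entry, had the same pattern, with 252 and 269.8 CPM in doxorubicin libraries 1 and 2, 85.3 CPM in library 3 and 123 to 189 CPM in stretch. The log2 fold changes of MRPS24 and MRPS15 were -0.37 and -0.23. MRPS16, whose loss causes a fatal combined respiratory chain deficiency, was the only MRPS symbol with all stretch libraries below. It stood at 202, 203, 187 and 212 CPM in stretch, against 309.7, 338 and 244 CPM in doxorubicin (log2 fold change -0.56, SE 0.27, edgeR adjusted p = 0.242). MRPS22, another disease gene, averaged 25.4 ± 3.82 CPM in stretch and 31.1 ± 5.39 CPM in doxorubicin.

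None of the 3 paralogues of bacterial S18 passed the test, and differences between them were not tested. MRPS18A, the copy in the large subunit, averaged 30.9 ± 2.16 CPM in stretch (SD, n = 4) and 36.1 ± 14.2 CPM in doxorubicin (n = 3). MRPS18B, the copy named mS40, averaged 44.2 ± 7.95 CPM in stretch and 51.1 ± 15.5 CPM in doxorubicin. MRPS18C, the copy at the bacterial position, averaged 47.2 ± 8.43 CPM in stretch and 29.7 ± 21.4 CPM in doxorubicin. The log2 fold changes of MRPS18A, MRPS18B and MRPS18C were -0.21, -0.20 and 0.62, none past the threshold and all with overlapping groups. MRPS36, which is no ribosomal protein, averaged 14.5 ± 0.563 CPM in stretch and 13.7 ± 6.78 CPM in doxorubicin.

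The 5 members with too few counts to test were MRPL13, MRPL30, MRPL34, MRPL35 and MRPS12, and none exceeded 2.15 CPM in any library. MRPS12, a protein of the decoding centre, held at most 2 counts in any library. Among the 72 members, 7 were at a count of 0 in doxorubicin library 2, 2 in library 1 and 0 in library 3, against 0 or 1 in each stretch library. The members tested but at 0 in doxorubicin library 2 were MRPL22, MRPL44 and MRPS25. The chemistry behind these counts amplifies a short stretch of each gene, so the CPM of different genes also depends on their primers. Where members are ordered by CPM, the order is one of counts obtained and not of transcripts per cell.

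With all libraries, the median log2 fold change was 0.38 over 41 large subunit symbols and 0.44 over 26 small subunit symbols, beside 0.02 over all tested genes. Without doxorubicin library 3 they were 0.54 and 0.84, beside 0.15, and without doxorubicin library 2 they were 0.30 and 0.19, beside -0.01. Grouped by place instead, the medians were 0.38 over 43 large subunit proteins and 0.49 over 23 small subunit proteins. Proteins classed by current name as bacterial homologues had a median of 0.39 (40 tested) and those classed as mitochondrial 0.67 (26 tested). By name MRPS18A and MRPS18B count as mitochondrial, though they are paralogues of bacterial S18. Within the large subunit the medians were 0.41 for homologues (26 tested) and 0.25 for mitochondrial ones (17 tested). Which of these is larger depends on the class given to MRPS18A, at -0.21. Within the small subunit the medians were 0.38 (14 tested) and 0.71 (9 tested) in the same order. Without overlap, 10 of the mitochondrial ones lay toward stretch and 0 toward doxorubicin, and 12 and 2 of the homologues did. All tested genes gave 11.5% and 9.88%. The differences between these classes were not tested.

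Summed levels were compared next. Large subunit symbols summed to 2756 ± 62.9 CPM in stretch (SD, n = 4), with a lowest library of 2686 CPM. In doxorubicin libraries 1, 2 and 3 they summed to 2354, 1810 and 2384 CPM, below every stretch library. Small subunit symbols summed to 1631 ± 54.5 CPM in stretch, against 1704, 1882 and 1366 CPM in doxorubicin libraries 1, 2 and 3, on either side of the stretch range of 1554 to 1672 CPM. The ratio of small to large summed CPM, in which library scaling cancels, was 0.578, 0.599, 0.591 and 0.599 in stretch libraries 4 to 7. It was 0.724, 1.04 and 0.573 in doxorubicin libraries 1, 2 and 3. The mean ratio was 0.592 ± 0.00966 in stretch (SD, n = 4) and 0.779 ± 0.239 in doxorubicin (n = 3), and doxorubicin library 3 lay just below the stretch values.

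**Figure D3:**
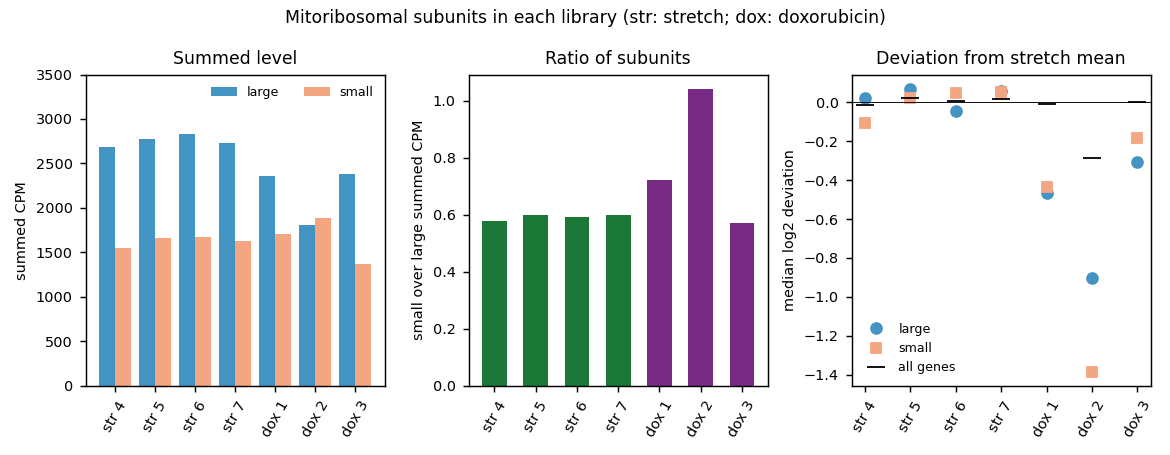
Summed CPM of large and small subunit symbols (left), their ratio (middle) and the median log2 deviation of tested members from their stretch mean (right), for stretch libraries 4 to 7 and then doxorubicin libraries 1 to 3. Large subunit sums are lower in all doxorubicin libraries than in stretch, the ratio reaches 1.04 in doxorubicin library 2, and the deviations there are -0.90 for large and -1.38 for small subunit members beside -0.28 for all genes.

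In doxorubicin library 2, a few abundant small subunit genes were high while the rest were low in sum. MRPS16, MRPS2, MRPS24, MRPS15 and MRPS27 were the 5 small subunit symbols with the highest mean over all libraries. They summed to 1524 CPM in that library, against 666 to 786 CPM in stretch. The other 22 small subunit symbols summed to 359 CPM there, against 885 to 906 CPM in stretch. In doxorubicin library 1 the same sums were 1104 and 600.03 CPM, and in library 3 they were 532 and 834 CPM. The ranking mean includes doxorubicin library 2, so it favours genes that were high there. By stretch mean alone, MRPS7 (114.7 CPM) would take the place of MRPS27 (114.2 CPM). In doxorubicin library 2, MRPS7 stood at 15.6 CPM and MRPS27 at 176 CPM. MRPS16, MRPS2, MRPS24 and MRPS15 are among the 5 by either mean. In doxorubicin libraries 1 and 2 the small subunit sum lay above every stretch library while most of its members lay below their stretch mean, and in library 3 both were below. By median deviation from the stretch mean, small subunit members lay at -0.44, -1.38 and -0.18 on the log2 scale in doxorubicin libraries 1, 2 and 3, and large subunit members at -0.47, -0.90 and -0.31. The medians over all tested genes were -0.01, -0.28 and 0.00.

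Members varied more among doxorubicin libraries than among stretch libraries, and a wider spread was not particular to them. Over all tested genes, log2 deviations from the stretch mean had interquartile ranges of 1.28, 2.37 and 0.817 in doxorubicin libraries 1, 2 and 3. In stretch libraries, which make up that mean, they were 0.312 to 0.567. The doxorubicin ranges were 1.06, 1.72 and 0.610 for large subunit members and 1.35, 2.97 and 0.757 for small ones. Across the tested members with no count of 0, the highest doxorubicin library exceeded the lowest by a median of 2.39-fold and by up to 34.3-fold (MRPL52). In stretch the median was 1.43-fold and the widest member, MRPL1, spanned 2.55-fold. The MRPL52 range rests on 1 count in doxorubicin library 2 (0.865 CPM), under the 2.59 CPM of 3 counts there. Of 67 tested members, 44 had their lowest doxorubicin value in library 2 and 39 their highest in library 3. The matching shares of all tested genes are not given here. Rows at 0 were most frequent in library 2 in the whole table too, and the part of library depth or quality in these values was not tested. Members at or below the median level of all members had a median log2 fold change of 0.67, and those above it 0.25. Against doxorubicin library 3 alone these medians were 0.29 and 0.28.

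Without doxorubicin library 3, edgeR called 27 members higher in stretch and 3 lower, of 69 tested, against 16% and 16.2% of all genes in that comparison. The 3 lower were MRPL4, MRPL37 and MRPS2. The 27 higher divided into 15 large and 12 small subunit symbols. They were led by MRPS35, MRPL27 and MRPL44, with log2 fold changes of 3.22, 3.06 and 2.78. These fold changes rest on few counts in doxorubicin libraries 1 and 2, at 17 and 2 for MRPS35, 4 and 3 for MRPL27, and 9 and 0 for MRPL44. Against doxorubicin library 3 alone, MRPS30 was the single member to pass, where 0.081% of all genes were called higher and 0.721% lower. The median log2 fold change of the 67 members was 0.75 without library 3, beside 0.14 for all genes, and 0.28 against library 3 alone, beside 0.04. For 33 of 67 members both settings put stretch above doxorubicin, and for 5 both put it below. Of the others, 17 were higher in stretch against libraries 1 and 2 and lower against library 3, and 12 the other way round.

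**Figure D4:**
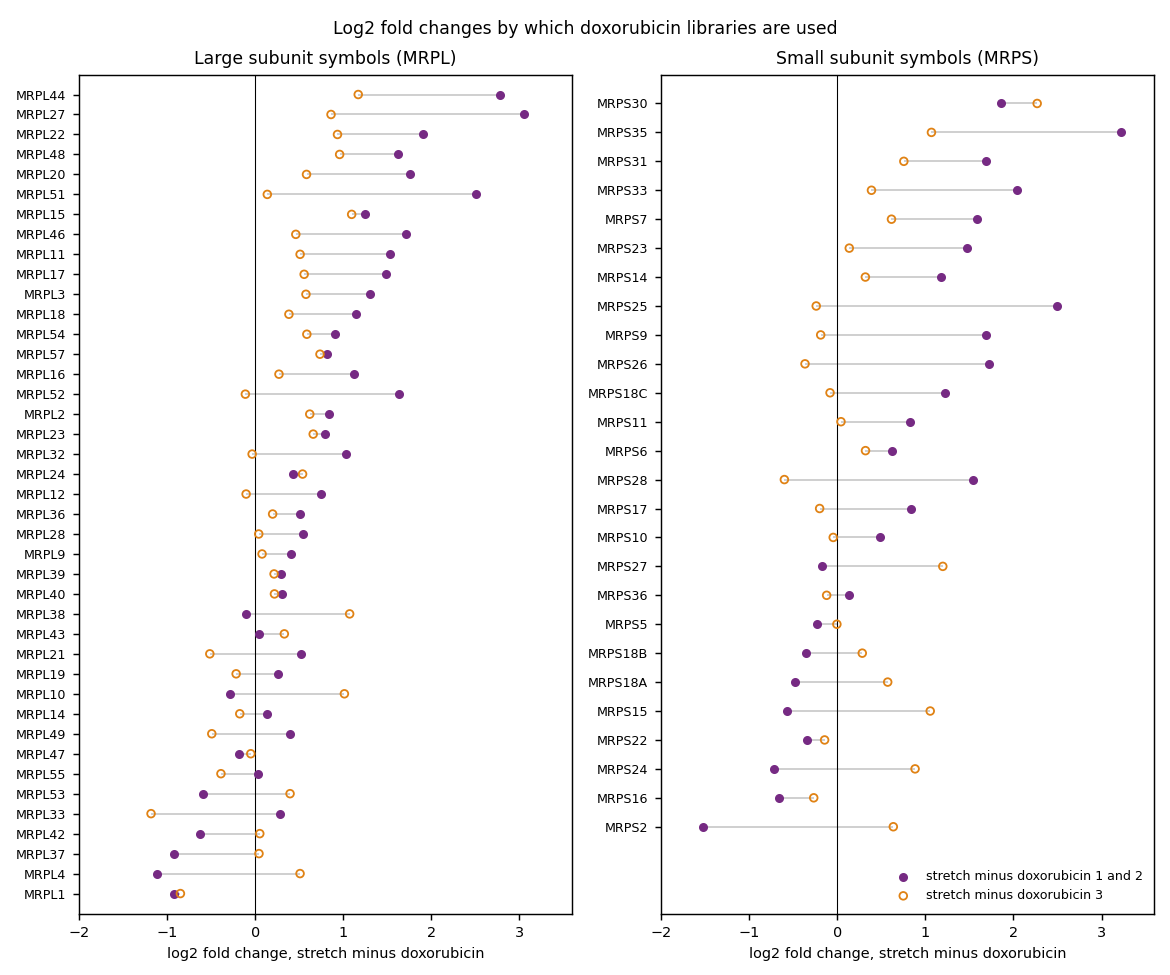
Log2 fold change (x axis, stretch minus doxorubicin) of each tested member when doxorubicin libraries 1 and 2 are used (filled) and when library 3 alone is used (open), in rows ordered by the value with all libraries, MRPL symbols on the left and MRPS symbols on the right. MRPS30 lies at 1.86 and 2.27, MRPS35 at 3.22 and 1.07, and MRPS2 at -1.53 and 0.64.

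Subunits that carry other names lay toward stretch with all libraries, with a median log2 fold change of 0.35, but not against doxorubicin library 3 alone (median -0.02, beside 0.04 for all genes). With all libraries, all 6 tested (AURKAIP1, CHCHD1, DAP3, GADD45GIP1, ICT1 and PTCD3) had log2 fold changes above 0, from 0.07 to 0.80, and 0 passed in edgeR's test, 0 at an unadjusted p under 0.05, 0 in DESeq2 and 0 in limma-voom. ICT1, a peptidyl-tRNA hydrolase built into the large subunit, averaged 100.7 ± 7.84 CPM in stretch and 68.8 ± 8.36 CPM in doxorubicin, without overlap. GADD45GIP1, a large subunit protein also named CRIF1, averaged 149 ± 34.4 CPM in stretch and 84.2 ± 64.5 CPM in doxorubicin.

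The rest of mitochondrial gene expression, in 5 further lists, also had 0 genes past the threshold in edgeR's test. Over these lists and the subunits with other names, 80 genes were tested. At an unadjusted p under 0.05, 13 were higher and 2 lower, against 8.66% and 14.5% of all tested genes. DESeq2 called 6, against 3.09% of its genes called higher and 6.94% lower. The limma-voom test called 0, against 0.303% and 1.35%. Among 23 assembly factors the median log2 fold change was 0.49, with 19 above 0. YBEY, an RNA endonuclease, averaged 39.3 ± 6.03 CPM in stretch and 17.8 ± 7.36 CPM in doxorubicin, and TRUB2, a pseudouridine synthase, 33.2 ± 5.46 and 18.1 ± 3.69 CPM in the same order. Among 17 translation factors the median was 0.22. TUFM, the elongation factor that brings aminoacyl-tRNA to the mitoribosome, stood at 65.3, 81.6, 67.5 and 85.7 CPM in stretch, against 36.1, 37.2 and 32.3 CPM in doxorubicin. Its doxorubicin libraries were nearly level, and it missed the threshold (log2 fold change 1.10, SE 0.28, edgeR adjusted p = 0.0617). OXA1L, which inserts new chains into the inner membrane, had a log2 fold change of 1.27. Among 17 tRNA synthetases and amidotransferase subunits the median was 0.58, with GATB and FARS2 at 1.64 and 1.53. Among 9 genes of mitochondrial DNA replication and transcription the median was 0.57. TOP1MT, the mitochondrial topoisomerase, averaged 72.8 ± 13.5 CPM in stretch and 30.3 ± 18.9 CPM in doxorubicin, and C10orf2, the helicase also named Twinkle, 31.6 ± 3.52 and 59.9 ± 25.8 CPM. Among 8 tested regulators, PPARGC1A had a log2 fold change of 1.17 and NRF1 of -0.56, NRF1 with all stretch libraries below. Against doxorubicin library 3 alone the medians of assembly factors, translation factors, synthetases and replication genes were 0.04, 0.01, 0.32 and 0.09.

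Cytosolic ribosomal proteins lay on the other side with TMM, RLE and upper-quartile factors, but not with library totals alone (median 0.39, beside 1.05 for mitochondrial ribosomal proteins and 0.71 for all genes). Their median log2 fold change was -0.44 over 77 tested genes, with 26 above 0, against 0.39 and 49 of 67 for the mitochondrial ones. In edgeR's test 1 was called higher and 4 lower, against 0.356% and 1.97% of all genes. At an unadjusted p under 0.05, 2 were higher and 19 lower, against 8.66% and 14.5%. DESeq2 called 11, against 3.09% of its genes called higher and 6.94% lower, and limma-voom called 4, against 0.303% and 1.35%. Against doxorubicin library 3 alone the medians were 0.23 for cytosolic and 0.28 for mitochondrial ribosomal proteins. The respiratory chain and ATP synthase genes of the nucleus, whose products join the chains that mitoribosomes make, had a median of 0.23 over 74 tested genes. In edgeR's test 0 of them were called, against 0.356% of all genes called higher and 1.97% lower. At an unadjusted p under 0.05, 9 were higher and 4 lower, against 8.66% and 14.5% of all genes. DESeq2 called 4, against 3.09% higher and 6.94% lower, and limma-voom called 0, against 0.303% and 1.35%. The differences between these gene sets were not tested.

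The members lie on 21 chromosomes, with 8 on chromosome 2, the most on any. A total of 14 share a start region with a protein-coding gene on the other strand in GENCODE release 29. In each pair the genes are transcribed apart and their starts are at most 1000 bases from each other. Pairs that overlap at their starts were not counted. MRPL46 and MRPS11 form such a pair between themselves on chromosome 15, with 34 bases between their starts (88467419 and 88467453). Their log2 fold changes were 1.14 (SE 0.45) and 0.50 (SE 0.38). MRPL46 stood at 142, 94.1, 119 and 89.4 CPM in stretch and 48.8, 18.2 and 81.7 CPM in doxorubicin, without overlap. MRPS11 stood at 71.7, 90.1, 83.4 and 76.2 CPM in stretch and 65.5, 24.2 and 78.8 CPM in doxorubicin, with overlap. MRPL36 and MRPL47 each face a gene of respiratory complex I, NDUFS6 and NDUFB5. MRPL36 and NDUFS6 had log2 fold changes of 0.38 and 1.46, and MRPL47 and NDUFB5 of -0.16 and -0.05. A total of 20 members share exon bases with a gene of the table on the other strand, MRPL37, MRPL51, MRPS2 and MRPS7 among them. Strand use in counting is not given in the sources used here, so reads of such partners may not be told apart.

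Promoter windows of RefSeq (build GRCh38.p14), 250 bases before to 50 after a start, were found for 63 members in 79 windows. They were searched on both strands for short cores of 3 factors known to act on nuclear genes for mitochondrial proteins. The GABP/ETS core CCGGAAG was in 30 of 79 windows (38.0%), against 10.3% of all 35116 windows. The YY1 core AAGATGGCG was in 12 windows (15.2%), against 1.75%. The NRF1 core GCATGCGC was in 6 windows (7.59%), against 3.05%, and its copies on opposite strands can overlap. Of the 63 members, 27 held the GABP/ETS core, and the 25 of these that were tested had a median log2 fold change of 0.63, beside 0.38 for the 35 tested members without it. The medians were 0.68 with the NRF1 core (6 tested) and 0.37 without (54 tested), and 0.31 with the YY1 core (12 tested) and 0.46 without (48 tested). None of these differences was tested. A match of letters is no evidence of binding. No window was found for MRPL10, MRPL13, MRPL15, MRPL2, MRPL21, MRPL23, MRPL35, MRPS28 and MRPS36.

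Upstream bases are shown for MRPS30, the member that passed the test, for MRPL27, MRPL20 and MRPL17, which lay toward stretch without overlap and hold a core more than once, and for MRPS16, which lay toward doxorubicin without overlap. The RefSeq start of these genes lies inside the gene as GENCODE release 29 draws it, by 22 bases in MRPS30, 30 in MRPL27, 20 in MRPL20, 61 in MRPL17 and 49 in MRPS16. The bases shown therefore begin 150 bases before the RefSeq start and end before the GENCODE start. Capitals mark GABP/ETS cores in MRPL27 and MRPL20 and overlapping NRF1 cores in MRPL17. The sequences run 5′ to 3′ on the gene's strand, at chr5:44808797-44808924 (plus), chr17:50373215-50373334 (minus), chr1:1407314-1407443 (minus), chr11:6683402-6683490 (minus) and chr10:73252694-73252794 (minus) of GRCh38.p14, in the order of the lines.
MRPS30: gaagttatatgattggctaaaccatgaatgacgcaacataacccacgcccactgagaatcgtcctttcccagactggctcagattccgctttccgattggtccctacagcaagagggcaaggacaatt
MRPL27: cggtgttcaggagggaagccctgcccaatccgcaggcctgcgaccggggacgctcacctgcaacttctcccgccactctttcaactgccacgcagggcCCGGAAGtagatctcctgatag
MRPL20: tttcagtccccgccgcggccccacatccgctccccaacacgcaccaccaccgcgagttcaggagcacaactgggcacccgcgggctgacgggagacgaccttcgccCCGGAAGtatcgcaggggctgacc
MRPL17: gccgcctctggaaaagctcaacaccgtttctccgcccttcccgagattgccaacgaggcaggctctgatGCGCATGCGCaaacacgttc
MRPS16: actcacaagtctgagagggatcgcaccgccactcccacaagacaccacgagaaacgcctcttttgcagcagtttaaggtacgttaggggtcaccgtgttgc

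None of the 3 cores lies in the bases shown for MRPS30 and MRPS16. Each holds a core after its RefSeq start, the YY1 core of MRPS30 beginning at base 14 and the GABP/ETS core of MRPS16 at base 6. Counted from the RefSeq start, MRPL27 holds its cores at bases -52 and -8 and MRPL20 at -44 and -21, and the nearer core of each is not shown in full. In MRPL17 the copies at -81 and -79 overlap on opposite strands, and the remaining one, not shown, begins at -43. MRPL27 shares its start region with EME1, a DNA repair nuclease gene on the other strand, whose log2 fold change was 0.52 beside 1.70 for MRPL27, neither past the threshold.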

How the data were processed

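The authors deposited 1 table of estimated counts per gene, whole numbers taken as rounded from expected counts and not normalised between libraries. Libraries were made with an Ion AmpliSeq transcriptome kit, per the labels' protocols, and fastp 0.20.1 and Salmon 1.9 are named with GRCh38, per the submitters' processing notes, without role or order. The annotation release is not given in the sources used here. Reads carry no molecular identifiers, so floors cover counting error only.

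Rows that share a symbol were summed (no member is among them) and Metazoa_SRP was left out. In R 4.3.3, edgeR 4.0.16 filtered genes (filterByExpr), computed TMM factors and ran the robust quasi-likelihood test (glmQLFit and glmQLFTest) of stretch over doxorubicin. P-values were adjusted by Benjamini-Hochberg over 11230 genes. SE is the absolute log2 fold change over the square root of F. The test was tried on simulated counts. The lowest chi-square per degree of freedom between any pair of libraries was 8.02, so each was counted once. Deviations use log-CPM with a prior count of 2.

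Members and lists were chosen with earlier results of these data known. Named members were those past the threshold, the 5 farthest each way in each subunit and the 3 nearest 0 (all at a mean of 10 CPM or more), and MRPS30, MRPS18A to MRPS18C and MRPS36. MRPL1, MRPL15 and other members were added after their values were seen, to fill the roles described. Places and homology follow the current protein names. Alternatives were RLE, upper-quartile and no scaling factors, no filter, a minimum mean of 10 CPM, limma 3.58.1 (voom), DESeq2 1.42.0, EIF4A2 and TAF1D left out, each library left out, doxorubicin library 3 alone, subunit by place and, added after seeing the data, voom with library quality weights.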

Additional observations from a re-analysis of the deposited data

Results flagged for a closer look

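Values of 30 measures (27 named members, the subunit sums and their ratio) were checked for a stretch library far from the other 3, and 2 stood out, where chance gives about 1 in 20. MRPL10 stood at 58.3 CPM in stretch library 4, against 90.9 to 91.8 CPM in the other 3 stretch libraries. MRPS18C stood at 34.7 CPM in stretch library 6, against 49.8 to 52.5 CPM in the others. The 3 doxorubicin libraries are too few for this check.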

How the results depend on the processing

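The number of members past the threshold was 1 in the edgeR test with all libraries. It was 0 with library totals alone, 9 with DESeq2, 38 with voom and library quality weights, and 0 to 30 with each library left out in turn (30 without doxorubicin library 3, and 0 without doxorubicin library 1 or any stretch library). Where leaving a library out gave 0 members, 0% to 0.0987% of all genes were called higher and 0.109% to 0.26% lower. Library totals alone gave medians of 1.07 for large and 1.04 for small subunit symbols, while the median of all genes was 0.71. With each library left out, the medians ran from 0.30 to 0.54 for large and from 0.19 to 0.84 for small subunit symbols. The difference in the small to large ratio, stretch minus doxorubicin, was -0.187, ran from -0.290 to -0.0565 with each library left out, and was 0.0190 with doxorubicin library 3 alone. No paired analysis was possible because the groups share no replicate number.

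Among 27 named members, the direction changed in 53 of the member-by-setting results, and direction and call held in 363. With library totals alone, the log2 fold changes that turned were MRPL14 0.68, MRPL33 0.046, MRPL37 0.20, MRPL4 0.19, MRPL42 0.39, MRPL49 0.58, MRPL53 0.47, MRPS15 0.78, MRPS16 0.24, MRPS18A 0.63, MRPS18B 0.65, MRPS22 0.43 and MRPS24 0.58, beside 0.71 for all genes. With doxorubicin library 3 alone they were MRPL37 0.044, MRPL4 0.51, MRPL42 0.053, MRPL53 0.40, MRPS15 1.06, MRPS18A 0.57, MRPS18B 0.28, MRPS18C -0.081, MRPS2 0.64, MRPS24 0.88 and MRPS36 -0.12. Members near 0 also turned. MRPL10 was -0.013 with RLE factors and -0.060 with quality weights, where MRPS36 was -0.31. MRPL14 and MRPL49 were 0.063 and 0.045 with upper-quartile factors, 0.086 and 0.066 without a filter, 0.024 and 0.011 at a mean of at least 10 CPM, 0.018 and 0.020 with DESeq2, and 0.013 and 0.0027 without EIF4A2 and TAF1D. With each library left out, the ranges of those that turned were -0.28 to 0.30 for MRPL10, -0.089 to 0.14 for MRPL14, -0.84 to 0.28 for MRPL33, -0.28 to 0.39 for MRPL49, -0.59 to 0.023 for MRPL53, -0.57 to 0.32 for MRPS15, -0.48 to 0.11 for MRPS18A, -0.36 to 0.053 for MRPS18B and -0.26 to 0.31 for MRPS36. The cause was not tested. Depth limits low members most in doxorubicin library 2, where 24 of 72 members had under 10 counts.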
